A study of Mus musculus with 4 samples.

Results

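The histone cluster genes are the features whose symbols begin with Hist1h, Hist2h, Hist3h or Hist4h, and they numbered 67 of the 31053 genes in the count matrices of this mouse series. The genes were selected on their symbols, and 6 encode linker histone H1, 18 H2A, 18 H2B, 12 H3 and 13 H4. This set of genes was proposed because of differences already seen in these libraries, so the ratios between aged and young cells below are descriptions, and no test was made on them. The cells, too, were chosen by measured values: a cell with at least 2 unique molecular identifiers (UMIs, tags that mark single RNA molecules) of Mki67 and Top2a together counted as cycling and was held apart. At the barcodes shared by 2 libraries, described below, cycling cells were not held apart.

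RNA of single cells was counted in 4 libraries, 1 each for the brain and the spleen of aged and of young mice, after sorting on high CD45 (a leukocyte surface protein), and was read from its 3′ ends in droplets. The study compared immune cells of the aged and the young brain, with spleen as the peripheral organ. The labels give every library the same tamoxifen injection and tdTomato reporter of NK cells; strain, sex, ages in numbers and how many mice were pooled are not given in the labels. The cell type in every label is neuroblast, but no cluster was led by neuron or neuroblast markers, and cells are named here from immune and brain markers instead. Microglia-like cells, which carry less CD45 than other leukocytes, were the largest class of both brain libraries, 5425 of 9099 aged and 2989 of 3401 young cells used, and astrocyte-like and endothelial-like clusters were also present.

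The libraries held 26384220 to 57011537 UMIs. The young brain and the aged spleen had 4354 cell barcodes in common, where 57.8 would be shared by chance, and the other pairs of libraries shared 7 to 38. All 4354 held more UMIs in the aged spleen (median 4899) than in the young brain (median 938). Young brain barcodes with more UMIs in the aged spleen were therefore left out, 4657 of 8058 cells, and 3401 remained, beside 9099 cells of aged brain, 5290 of aged spleen and 6343 of young spleen. The shared barcodes serve below as a check, since both libraries hold them. With 1 library per group there is no spread between animals. Intervals (95%) are exact Poisson intervals for levels and exact conditional binomial intervals for ratios, cover counting error only, and cannot tell age from any other difference between 2 libraries.

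Histones H2A, H2B, H3 and H4 form the nucleosome core around which DNA winds, and H1 binds the linker DNA between nucleosomes. Most genes of the clusters are replication-dependent: their transcription rises in S phase, and their mRNAs usually end a few bases after a conserved stem-loop, bound by the protein Slbp, in place of a poly(A) tail. Cells that leave the cycle can also make polyadenylated mRNAs from some of these genes, which end past the stem-loop, and the kit used here primes on poly(A). A level in these data is therefore mostly a level of polyadenylated or A-rich mRNA, and not of all histone mRNA.

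The stem-loop sites are shown because the loop marks the end of a replication-dependent histone mRNA. In the GENCODE M21 annotation (GRCm38), the Hist1 cluster lies on chromosome 13 (54 genes, chr13:21715763-23934851), Hist2 on chromosome 3 (10 genes, chr3:96219865-96270132), Hist3 on chromosome 11 (2 genes, chr11:58948920-58956830) and Hist4h4 on chromosome 6 (chr6:136801553-136804415). A 16-base stem-loop was found in the annotated 3′ UTR of 37 of the 67 genes. In 25 of them, 10 H2A, 7 H2B, 5 H3 and 3 H1 genes, it read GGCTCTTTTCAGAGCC, and in 7, all H4, it read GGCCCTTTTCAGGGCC. The sites below are written 5′ to 3′ on the gene's strand, with the stem-loop in capitals and up to 7 bases on either side.
Hist1h1e: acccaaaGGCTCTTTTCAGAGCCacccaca
Hist1h1c: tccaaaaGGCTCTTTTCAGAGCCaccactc
Hist1h1d: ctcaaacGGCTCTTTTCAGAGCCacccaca
Hist1h2ac: acccaaaGGCTCTTTTCAGAGCCcccactt
Hist1h2ae: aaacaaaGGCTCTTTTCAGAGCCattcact
Hist2h2aa1: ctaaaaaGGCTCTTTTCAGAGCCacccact
Hist1h2ap: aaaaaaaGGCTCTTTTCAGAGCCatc
Hist1h4d: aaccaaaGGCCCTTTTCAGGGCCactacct
Hist4h4: ccacaaaGGCCCTTTTCAGGGCCcacaaag
Hist1h4n: aactaaaGGCCCTTTTCAGGGCCatccaat

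These sites lie in 3′ UTRs at chr13:23621775-23621804 (minus strand, Hist1h1e), chr13:23739505-23739534 (plus, Hist1h1c), chr13:23555780-23555809 (plus, Hist1h1d), chr13:23683470-23683499 (minus, Hist1h2ac), chr13:23570661-23570690 (minus, Hist1h2ae), chr3:96246025-96246054 (plus, Hist2h2aa1), chr13:21833026-21833051 (minus, Hist1h2ap), chr13:23581943-23581972 (plus, Hist1h4d), chr6:136803991-136804020 (minus, Hist4h4) and chr13:21831791-21831820 (minus, Hist1h4n). What sets the genes apart is how far the annotated transcript runs on after the loop: 4884 bases in Hist1h1d, 2445 in Hist4h4, 2010 in Hist1h2ac, 1153 in Hist1h1e and 840 in Hist1h1c, but 35 in Hist2h2aa1, 31 in Hist1h4n and 3 in Hist1h2ap. By this annotation 19 members end at least 100 bases past the loop (median 840), 18 end at the loop (median 34 bases after it), 15 have a 3′ UTR without one, and 15 have no annotated 3′ UTR or, in Hist1h2ah and Hist1h2af, one of 2 bases and 1 base; these 15 are called members without a 3′ UTR below.

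Promoters are shown for 4 members with differing results below. RefSeq promoters (GRCm38.p6) were matched for 62 of the 67 genes by symbol and overlap. Each window is the 150 bases before the RefSeq start, 5′ to 3′ on the gene's strand, and capitals mark matches on either strand to the box CCAAT, the TATA box (as TATAAA), the octamer (as ATTTGCAT) or the H1 box (as AAACACA), none of which contains another.
Hist1h2ac: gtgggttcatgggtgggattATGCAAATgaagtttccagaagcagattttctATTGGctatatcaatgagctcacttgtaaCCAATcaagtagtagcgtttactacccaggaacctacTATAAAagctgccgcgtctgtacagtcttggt
Hist1h2ae: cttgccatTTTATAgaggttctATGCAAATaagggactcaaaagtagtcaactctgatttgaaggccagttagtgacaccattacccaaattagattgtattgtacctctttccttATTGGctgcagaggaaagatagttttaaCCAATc
Hist1h1e: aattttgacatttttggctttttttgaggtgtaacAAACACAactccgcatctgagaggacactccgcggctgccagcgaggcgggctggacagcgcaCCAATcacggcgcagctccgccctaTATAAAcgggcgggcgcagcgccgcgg
Hist1h2ap: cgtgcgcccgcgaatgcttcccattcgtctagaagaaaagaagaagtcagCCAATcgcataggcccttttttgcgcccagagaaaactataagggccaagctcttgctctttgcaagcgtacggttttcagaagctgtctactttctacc

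The windows are chr13:23683960-23684109 (minus strand), chr13:23571221-23571370 (minus), chr13:23622559-23622708 (minus) and chr13:21833476-21833625 (minus), each before the RefSeq start of the gene named; the RefSeq and GENCODE starts of Hist1h2ap differ, and its window runs into the GENCODE span. Over the 250 bases before the start, CCAAT was present in 51 of 62 members (82.3%) and in 33.9% of all 32841 promoters, TATAAA in 29 (46.8%) and 12.4%. The octamer was found in 13 members (20.97%), 7 H2A and 6 H2B genes, against 1.60% of all promoters, and the H1 box in 9 (14.5%), among them 5 of 6 H1 genes, against 6.25%. Medians of the microglial aged to young ratios described next, with and without each motif, were 0.532 (28 measured members) and 0.741 (5) for CCAAT, 0.501 (16 measured members) and 0.627 (17) for TATAAA, 0.530 (9 measured members) and 0.550 (24) for the octamer, and 0.473 (6) and 0.596 (27) for the H1 box, with no test made.

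Non-cycling cells of the aged libraries held fewer UMIs of the histone cluster genes per 1e6 UMIs (CPM) than the young in all 5 classes compared. Summed over the 67 genes, microglia-like cells had 1726 (1704 to 1747) CPM in the aged brain (5425 cells) and 3217 (3174 to 3260.0) in the young (2989 cells), a ratio of 0.536 (0.527 to 0.546). Border macrophage-like cells, the macrophages of the brain's borders that carry Mrc1, had 898 (858 to 939) CPM (793 cells) and 1735 (1617 to 1858, 206 cells), a ratio of 0.518 (0.476 to 0.563). Both ratios lay close to each other, and neither interval reached 1.

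The spleen classes had lower levels and ratios nearer to 1. NK-like cells had 429 (409 to 450.5) CPM in aged (798 cells) and 676 (657 to 694) in young spleen (1801 cells), a ratio of 0.635 (0.6005 to 0.672). In T-like cells the levels were 278 (268 to 289, 1643 cells) and 361 (349 to 374, 1642 cells), a ratio of 0.769 (0.731 to 0.810). B-like cells had 419 (405 to 433, 1903 cells) and 650.2 (634 to 666, 2394 cells), a ratio of 0.644 (0.618 to 0.671). Free RNA, read from barcodes of at most 100 UMIs, held 1209.9 CPM of these genes in aged brain, 1360.1 in young brain, 593 in aged spleen and 587 in young spleen. Barcodes that the young brain shares with the aged spleen were left out of its cells only, and not of its free RNA. Free RNA of the 2 spleens differed less than their cells did. The levels of border macrophage-like cells of the aged brain, and of NK-like, B-like and T-like cells of the aged spleen, lay below that of free RNA in the same library. So did that of T-like cells of the young spleen. The part of free RNA in the cells' levels was not tested.

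**Figure D1:**
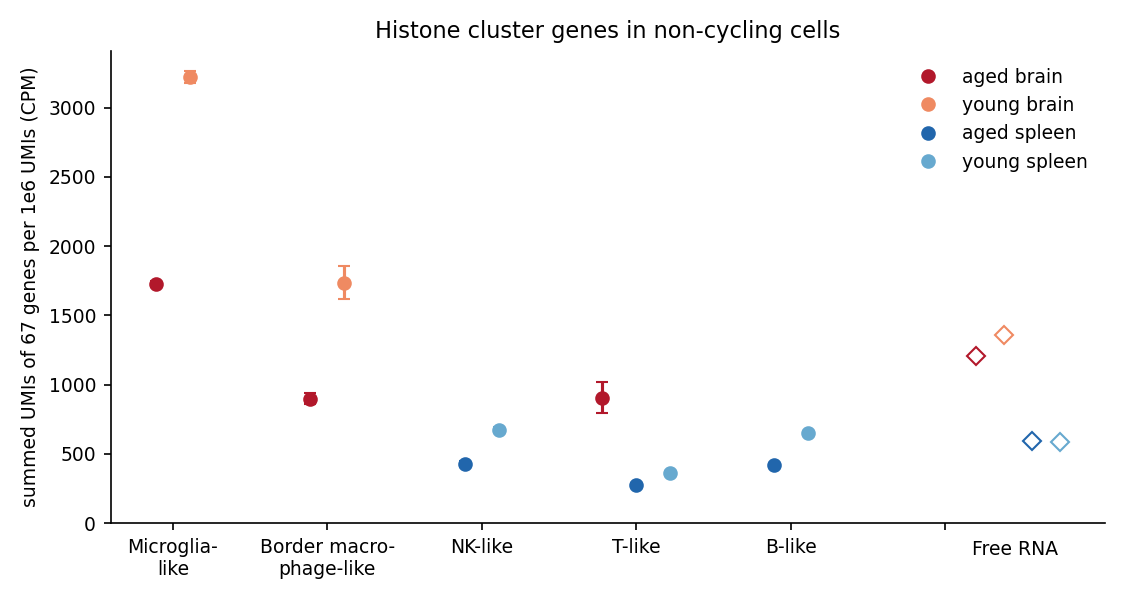
Summed CPM of the 67 genes in non-cycling cells of each class (points, with 95% Poisson intervals; classes of at least 50 cells in a library) and in free RNA (open diamonds). Young microglia-like cells stand highest at 3217 CPM, and in each class the aged value lies below the young value of the same tissue.

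The classes were not made of the same clusters in the 2 libraries. Of the aged microglia-like cells 4997 fell in cluster 0, led by Cx3cr1 and Tmem119, which held 78 young cells. In turn, 2793 young cells fell in cluster 2, led by Fcrls, with 215 aged cells. Cluster 4, with 1538 aged and 29 young brain cells before shared barcodes were left out, scored highest on microglia markers (1.24). Ependymal or choroid markers came next (1.19). Cluster 4 was left unnamed for its low RNA, so the microglial ratio does not hold it, and its part was not tested. Within a cluster the ratio stayed below 1: 0.557 (0.512 to 0.608) in cluster 0, 0.571 (0.530 to 0.613) in cluster 2, and 0.516 (0.469 to 0.567) in cluster 3, led by Lpl, Cxcl10 and interferon-induced genes. Among NK-like cells it was 0.724 (0.678 to 0.772) in cluster 18 (Gzma, Klra4) and 0.573 (0.502 to 0.654) in cluster 19 (Cd7, Klrb1b). Among T-like cells it ran from 0.715 (0.644 to 0.793) in cluster 6 to 0.882 (0.769 to 1.01) in cluster 7, led by Ctla4 and Izumo1r, whose interval included 1. B-like cluster 22 (Ms4a1, Fcer2a), with 888 aged and 2224 young cells, gave 0.678 (0.643 to 0.714), and cluster 23 (Egr3, Irf4), with 935 aged and 85 young cells, gave 0.767 (0.657 to 0.900). The small cluster 21, 80 aged and 85 young cells, went the other way at 1.16 (0.879 to 1.55), with an interval that included 1, and no gene of the set reached 50 UMIs there.

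Markers of the other classes stayed low in the microglia-like cells: the 9 border macrophage markers summed to 341 CPM in aged and 256 in young cells, against 7404 and 10559 in the border macrophage-like cells. Microglia markers, however, reached 8198 CPM in aged and 5478 in young border macrophage-like cells, with all 10 markers detected in both, and their part in that ratio was not tested. Median depth per cell was 2349 and 2315 UMIs in aged and young microglia-like cells, and 4618 and 4049 in NK-like, 5749 and 5078 in T-like and 4158 and 3787 in B-like cells.

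A member was counted as measured in a comparison with at least 50 UMIs over its 2 libraries, and called at a ratio of CPM of 0.5 or less, or 2 or more. A member with most of its UMIs in 1 library passes that minimum through that library, so counts of measured members are not counts of all members. In microglia-like cells 38 of 67 members were measured, and 15 were lower and 4 higher in the aged brain, where 1.56% of all 10902 measured genes were lower and 5.05% higher. The median log2 ratio was -0.86 over these members and 0.10 over all genes. Border macrophage-like cells had 15 measured members, of which 7 were lower and 1 higher, against 1.98% and 5.98% of all genes, with medians of -0.93 and 0.05. Members were thus called lower more often than genes at large in both brain classes.

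In NK-like cells 8 of 28 measured members were lower and 0 higher, against 2.56% and 2.51% of all genes, with median log2 ratios of -0.67 over members and -0.12 over all genes. In T-like cells 3 of 25 were lower and 0 higher, against 1.86% and 3.04%, with medians of -0.42 and -0.09. In B-like cells 9 of 27 were lower and 0 higher, against 1.73% and 1.68%, with medians of -0.56 and -0.13. The 3 spleen comparisons share their libraries, as do the 2 brain comparisons, so they are not independent of one another. With each cell thinned to 1000 UMIs, which leaves fewer members measured, the members called lower numbered 12 of 25 measured in microglia-like cells, 1 of 5 measured in border macrophage-like, 2 of 7 measured in NK-like, 0 of 5 measured in T-like and 4 of 12 measured in B-like cells. Over all genes measured in the thinned cells, 1.2997%, 2.44%, 2.64%, 1.94% and 1.82% were lower in these classes. Of the 67 members, 64 had a UMI in the cells used. Hist1h2bq, Hist1h2ba and Hist1h2aa had none, the last 2 being the testis forms of H2B and H2A. The 12 members with most UMIs, all named below, held 79.6% of the 72458 member UMIs of the 5 classes. Levels are given per 1e6 UMIs and not per length, since reads come from 3′ ends, and are not compared between genes.

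The linker histone genes, which had the most UMIs of the 5 families, were lower in the aged cells of all 5 classes. Summed H1 levels were 958 CPM in aged and 1913 in young microglia-like cells, a ratio of 0.501 (0.489 to 0.513). The ratio was 0.591 (0.514 to 0.681) in border macrophage-like, 0.619 (0.568 to 0.674) in NK-like, 0.798 (0.729 to 0.875) in T-like and 0.550 (0.516 to 0.586) in B-like cells. Hist1h1e (chr13:23620629-23622558, minus strand) had 562 CPM in aged and 1074 in young microglia-like cells, and 209.6 in aged and 341 in young border macrophage-like cells. In spleen it had 65.4 (aged) and 139 (young) CPM in NK-like, 29.0 and 39.1 in T-like, and 52.0 and 124 in B-like cells. Its ratio was 0.523 (0.507 to 0.540) in microglia-like, 0.472 (0.410 to 0.542) in NK-like and 0.420 (0.377 to 0.469) in B-like cells, the last 2 past the 2-fold mark. The last 300 bases of its annotated transcript lie inside the span of a Hist1h2be transcript on the same strand, so its reads could be split between the 2 genes or left uncounted, and its level is uncertain to that extent.

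Hist1h1d (chr13:23553262-23560686, plus strand) had 198 CPM in aged and 427 in young microglia-like cells, and 57.8 in aged and 79.3 in young border macrophage-like cells. Spleen levels of Hist1h1d were 8.37 (aged) and 24.7 (young) CPM in NK-like, 5.59 and 6.74 in T-like, and 8.43 and 23.1 in B-like cells. It was lower by 2-fold or more in aged microglia-like (0.462, 0.439 to 0.487), NK-like (0.339, 0.225 to 0.494) and B-like cells (0.364, 0.276 to 0.476), while its ratio in T-like cells was 0.829 (0.564 to 1.22), an interval that included 1. Hist1h1c (chr13:23738808-23740367, plus strand), a linker histone also made outside S phase, had 191 CPM in aged and 396 in young microglia-like cells, and 85.5 in aged and 159 in young border macrophage-like cells. Spleen levels of Hist1h1c were 103 (aged) and 119 (young) CPM in NK-like, 51.4 and 60.3 in T-like, and 98.8 and 129 in B-like cells. Its gap between aged and young was wide in brain, 0.483 (0.458 to 0.510) in microglia-like cells, and narrow in spleen, 0.863 (0.765 to 0.972) in NK-like, 0.853 (0.753 to 0.965) in T-like and 0.763 (0.699 to 0.833) in B-like cells; the difference between tissues was not tested. Hist1h1b had 1.18 CPM in aged and 5.34 in young microglia-like cells. Spleen levels of Hist1h1b were 2.88 (aged) and 7.85 (young) CPM in NK-like, 1.93 and 2.40 in T-like, and 3.70 and 18.3 in B-like cells. It was called lower at 0.221 (0.116 to 0.403) in microglia-like, 0.367 (0.174 to 0.704) in NK-like and 0.202 (0.134 to 0.295) in B-like cells. Of the remaining H1 genes, Hist1h1a gave 0.566 (0.408 to 0.786) in microglia-like cells, and the testis gene Hist1h1t was under 50 UMIs in every comparison.

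**Figure D2:**
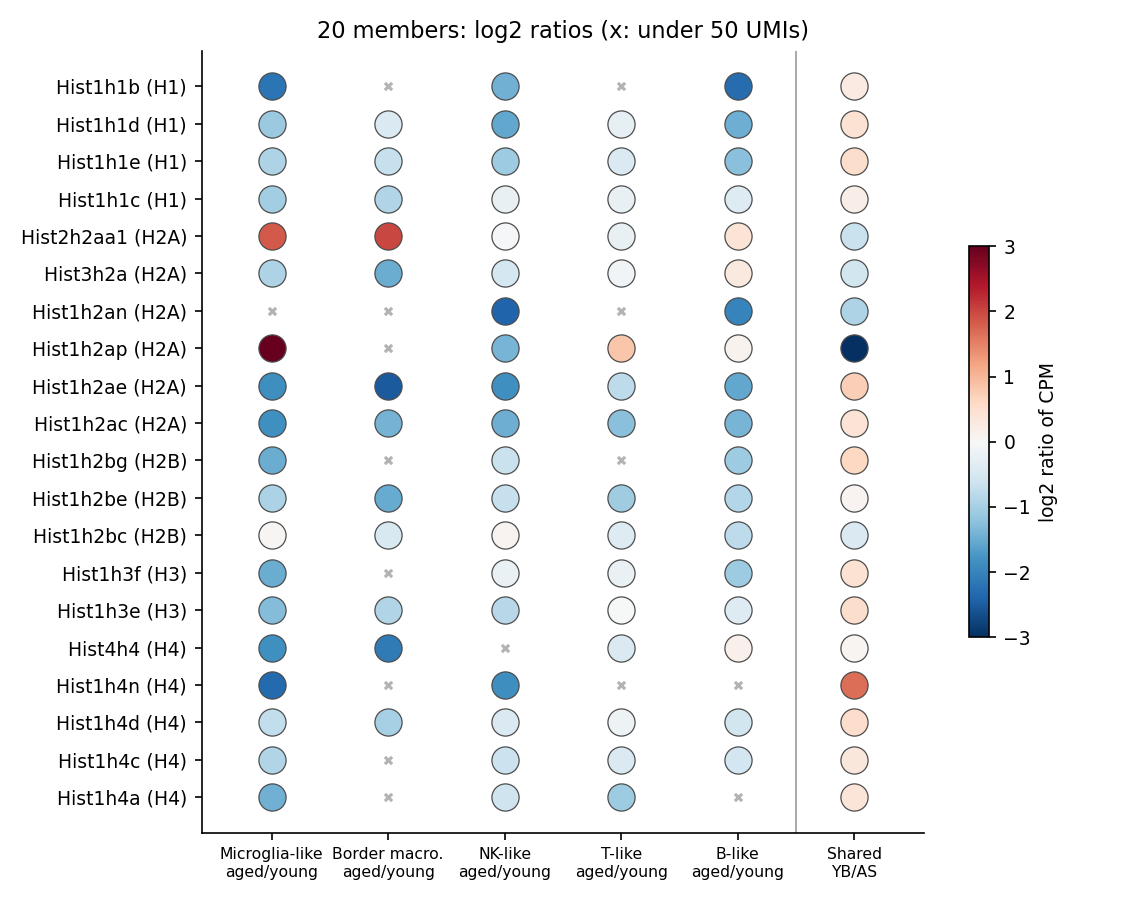
Log2 ratio of CPM for the 20 members described in full, by family: aged to young in the 5 classes, and young brain (YB) to aged spleen (AS) at the barcodes both hold. Blue is lower in the first-named library, red higher, and a small cross marks under 50 UMIs. Cycling cells are left out of the 5 classes and kept at shared barcodes. Hist1h2ac is blue in all 5 classes, and Hist1h2ap is red in microglia-like cells and dark blue at shared barcodes.

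Among the H2A genes, Hist1h2ac and Hist1h2ae were below 1 in each class, and Hist2h2aa1 and Hist1h2ap went the opposite way in brain. Hist1h2ac (chr13:23681467-23683948, minus strand) had 46.5 CPM in aged and 167 in young microglia-like cells, and 30.6 in aged and 81.5 in young border macrophage-like cells. In spleen it had 3.66 (aged) and 10.1 (young) CPM in NK-like, 3.96 and 9.48 in T-like, and 3.58 and 9.36 in B-like cells. It was the member called lower in all 5 classes, with ratios of 0.279 (0.253 to 0.307), 0.375 (0.247 to 0.576), 0.364 (0.190 to 0.648), 0.418 (0.278 to 0.619) and 0.383 (0.246 to 0.580) in microglia-like, border macrophage-like, NK-like, T-like and B-like cells. Hist1h2ae (chr13:23570517-23571220, minus strand) had 29.3 CPM in aged and 106 in young microglia-like cells, and 11.9 in aged and 68.6 in young border macrophage-like cells. Spleen levels of Hist1h2ae were 4.18 (aged) and 14.9 (young) CPM in NK-like, 3.66 and 6.28 in T-like, and 8.20 and 24.1 in B-like cells. It was called lower in all but T-like cells, at 0.276 (0.244 to 0.312), 0.174 (0.0989 to 0.303), 0.281 (0.155 to 0.476) and 0.340 (0.257 to 0.444), and gave 0.582 (0.372 to 0.903) in T-like cells.

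Hist2h2aa1 (chr3:96245497-96246082, plus strand) was higher in the aged brain, with 64.1 CPM in aged and 17.8 in young microglia-like cells, and 25.8 in aged and 6.43 in young border macrophage-like cells. Its ratios were 3.60 (2.97 to 4.39) in microglia-like and 4.01 (1.301 to 20.05) in border macrophage-like cells, and in spleen it had 4.97 (aged) and 5.10 (young) CPM in NK-like, 4.37 and 5.14 in T-like, and 6.12 and 4.63 in B-like cells, with ratios of 0.974 (0.532 to 1.73), 0.850 (0.547 to 1.32) and 1.32 (0.874 to 2.01). Every 50-base stretch of its last 300 bases is also in Hist2h2aa2, so reads from there could come from either copy. Over the 5 classes Hist2h2aa1 had 1355 UMIs and Hist2h2aa2 had 3. How reads were assigned between the copies is not known. Hist1h2ap (chr13:21833026-21833507, minus strand) had 23.6 CPM in aged and 2.52 in young microglia-like cells, and 15.8 in aged and 0 in young border macrophage-like cells. Spleen levels of Hist1h2ap were 2.09 (aged) and 5.49 (young) CPM in NK-like, 4.06 and 2.28 in T-like, and 7.74 and 7.24 in B-like cells. In young border macrophage-like cells the count of 0 allows up to 6.43 CPM. Hist1h2ap was higher in aged microglia-like cells at 9.34 (5.75 to 16.2) and lower in aged NK-like cells at 0.381 (0.154 to 0.821), and its ratio was 1.78 (1.02 to 3.21) in T-like and 1.07 (0.755 to 1.51) in B-like cells. Its annotated end, 3 bases after the stem-loop, is likewise shared in full with Hist1h2ao, whose UMIs were few.

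Hist3h2a had 37.6 CPM in aged and 70.9 in young microglia-like cells, and 34.4 in aged and 96.5 in young border macrophage-like cells. Spleen levels of Hist3h2a were 21.2 (aged) and 30.5 (young) CPM in NK-like, 19.0 and 20.3 in T-like, and 41.6 and 34.0 in B-like cells. It was called lower in border macrophage-like cells, 0.356 (0.242 to 0.529), and lay above 1 in B-like cells, 1.22 (1.05 to 1.42). Hist1h2an was called lower in NK-like cells, with 1.31 and 6.93 CPM in aged and young and a ratio of 0.189 (0.0588 to 0.469), and in B-like cells, with 2.20 and 8.75 CPM and 0.251 (0.144 to 0.415). As a family, H2A gave 0.552 (0.526 to 0.581) in microglia-like, 0.480 (0.394 to 0.586) in border macrophage-like, 0.545 (0.462 to 0.640) in NK-like, 0.748 (0.659 to 0.848) in T-like and 0.804 (0.731 to 0.883) in B-like cells.

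All 12 head-to-head pairs of members with at most 500 bases between their starts join an H2A and an H2B gene, and a pair did not always share its ratio. Hist1h2bc (chr13:23684199-23692908, plus strand) starts 250 bases from the start of Hist1h2ac, the gene called lower in every class, yet had 93.3 CPM in aged and 89.5 in young microglia-like cells, and 70.7 in aged and 98.6 in young border macrophage-like cells. Spleen levels of Hist1h2bc were 14.1 (aged) and 13.3 (young) CPM in NK-like, 9.35 and 12.2 in T-like, and 25.5 and 43.9 in B-like cells. Its ratios were 1.04 (0.946 to 1.15) in microglia-like and 1.06 (0.747 to 1.49) in NK-like cells, both with intervals that included 1, and 0.582 (0.493 to 0.686) in B-like cells. Hist1h2bg, 175 bases from Hist1h2ae, had 18.9 CPM in aged and 53.1 in young microglia-like cells, a ratio of 0.355 (0.302 to 0.417), on the same side as its neighbour's 0.276. In B-like cells Hist1h2bg had 2.54 and 5.43 CPM, a ratio of 0.468 (0.271 to 0.781). In microglia-like cells 5 pairs had both genes measured; 3 had both ratios below 1, and the other 2, Hist1h2ac with Hist1h2bc and Hist1h2ap with Hist1h2br, had ratios more than 2-fold apart.

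Hist1h2be (chr13:23583670-23621124, minus strand), whose annotated span covers the end of Hist1h1e, had 49.2 CPM in aged and 94.3 in young microglia-like cells, and 23.9 in aged and 68.6 in young border macrophage-like cells. Spleen levels of Hist1h2be were 8.89 (aged) and 14.4 (young) CPM in NK-like, 4.78 and 9.94 in T-like, and 8.20 and 15.1 in B-like cells. It was called lower in border macrophage-like (0.348, 0.219 to 0.561) and T-like cells (0.481, 0.330 to 0.693). H2B as a family gave 0.671 (0.634 to 0.710) in microglia-like, 0.513 (0.417 to 0.635) in border macrophage-like, 0.694 (0.590 to 0.814) in NK-like, 0.696 (0.605 to 0.799) in T-like and 0.679 (0.611 to 0.754) in B-like cells.

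The H3 family gave 0.604 (0.556 to 0.657) in microglia-like, 0.528 (0.384 to 0.732) in border macrophage-like, 0.768 (0.645 to 0.911) in NK-like, 0.796 (0.683 to 0.926) in T-like and 0.647 (0.560 to 0.746) in B-like cells. Hist1h3e had 22.9 CPM in aged and 56.7 in young microglia-like cells, and 17.2 in aged and 32.2 in young border macrophage-like cells. Spleen levels of Hist1h3e were 10.98 (aged) and 19.6 (young) CPM in NK-like, 13.4 and 13.5 in T-like, and 16.8 and 22.0 in B-like cells. It was called lower in microglia-like cells, 0.403 (0.347 to 0.469), and did not differ beyond counting error in T-like cells, 0.995 (0.771 to 1.29). Hist1h3f, whose last 300 bases are all shared with Hist1h3e, had 3.67 CPM in aged and 10.2 in young microglia-like cells, a ratio of 0.359 (0.246 to 0.521), and 0.473 (0.309 to 0.709) in B-like cells. In B-like cells Hist1h3e gave 0.760 (0.612 to 0.942). Reads from the shared stretch could come from either gene, and how they were assigned is not known. The 2 genes are therefore not taken as separate evidence.

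The H4 family gave 0.562 (0.534 to 0.591) in microglia-like, 0.440 (0.368 to 0.526) in border macrophage-like, 0.635 (0.562 to 0.717) in NK-like, 0.779 (0.702 to 0.864) in T-like and 0.720 (0.648 to 0.799) in B-like cells. Hist1h4d, the H4 member with most UMIs (chr13:23581598-23582735, plus strand), had 123 CPM in aged and 207 in young microglia-like cells, and 96.0 in aged and 193 in young border macrophage-like cells. Spleen levels of Hist1h4d were 37.4 (aged) and 50.9 (young) CPM in NK-like, 28.1 and 31.3 in T-like, and 23.1 and 34.6 in B-like cells. Its ratio was 0.596 (0.556 to 0.640) in microglia-like, 0.497 (0.386 to 0.645) in border macrophage-like and 0.900 (0.758 to 1.07) in T-like cells. Hist4h4, which stands alone on chromosome 6, had 20.04 CPM in aged and 72.3 in young microglia-like cells, and 18.1 in aged and 79.3 in young border macrophage-like cells. Spleen levels of Hist4h4 were 2.62 (aged) and 4.97 (young) CPM in NK-like, 5.79 and 7.88 in T-like, and 3.12 and 2.82 in B-like cells. It was lower in both aged brain classes, 0.277 (0.239 to 0.321) and 0.229 (0.142 to 0.370), while T-like (0.735, 0.508 to 1.06) and B-like cells (1.11, 0.628 to 1.95) had intervals that included 1. Hist1h4c had 25.7 CPM in aged and 48.1 in young microglia-like cells. Spleen levels of Hist1h4c were 20.9 (aged) and 33.0 (young) CPM in NK-like, 10.9 and 14.6 in T-like, and 10.5 and 15.5 in B-like cells, and was called in no class. Of the lower-level members, Hist1h4n was called in microglia-like (0.199, 0.106 to 0.358) and NK-like cells (0.274, 0.105 to 0.607), and Hist1h4a in microglia-like (0.369, 0.221 to 0.611) and T-like cells (0.468, 0.258 to 0.825).

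Outside the 20 members described so far, calls in microglia-like cells went both ways: Hist2h4 (0.418, 0.303 to 0.575), Hist1h2bj (0.421, 0.329 to 0.538), Hist1h2ab (0.294, 0.212 to 0.403) and Hist3h2ba (0.478, 0.304 to 0.754) were lower in the aged brain, and Hist2h2bb (2.95, 1.63 to 5.77) and Hist2h3b (2.39, 1.41 to 4.29) higher. Hist1h3i was lower in B-like cells (0.349, 0.177 to 0.647). Members not called in microglia-like cells included Hist1h4i at 1.001 (0.843 to 1.19), Hist1h3d at 0.809 (0.686 to 0.957) and Hist2h2ac at 0.670 (0.569 to 0.790).

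At the 4354 barcodes that young brain and aged spleen share, the young brain library held a higher level of these genes. Their summed level there was 821 CPM in the young brain and 665 in the aged spleen, a ratio of 1.24 (1.19 to 1.28). Cycling cells were not left out at shared barcodes, unlike in the class comparisons. The aged spleen held 17300 member UMIs at these barcodes, and 10543 in all its non-cycling cells. Of 45 members measured, 33 lay above 1; 2 were higher by 2-fold or more, against 1.59% of all genes, and 1 was lower, against 2.09%. The median log2 ratio was 0.34 over members and 0.06 over all genes. The side is that of the young against the aged brain, and the value of 1.24 is smaller than the young to aged ratio of 1.86 (1.83 to 1.90) in microglia-like cells. How much of that ratio a difference between the libraries carries was not tested, and the cells at shared barcodes are of spleen and include cycling cells. Free RNA, from which shared barcodes were not left out, held 1360.1 CPM of these genes in young brain and 593 in aged spleen. Its part in the ratio at shared barcodes was not tested.

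By family the shared barcodes gave 1.39 (1.29 to 1.504) for H4, 1.28 (1.21 to 1.36) for H1, 1.27 (1.14 to 1.40) for H3, 1.15 (1.07 to 1.23) for H2A and 1.06 (0.952 to 1.17) for H2B, whose interval included 1. Hist1h2ap stood apart, with 1.84 CPM in the young brain and 25.5 in the aged spleen, a ratio of 0.0720 (0.0328 to 0.138), the 1 member lower there by 2-fold or more. Of Hist1h2ap the aged spleen had 664 UMIs at shared barcodes, 737 in its cycling cells and 148 in its others. The microglial ratio of Hist1h2ap, 9.34 in the aged to young direction, leaves cycling cells out. It rests on the same young brain library, and the part of the library in it was not tested. Hist2h2aa1, the other H2A gene higher in the aged brain, had 5.31 CPM in the young brain and 8.49 in the aged spleen at shared barcodes, a ratio of 0.625 (0.399 to 0.941), on the same side. Hist1h4n was higher in the young brain library (5.31 CPM in the young brain and 1.65 in the aged spleen, 3.21, 1.90 to 5.35), as was Hist1h2ab (48.8 CPM in the young brain and 24.2 in the aged spleen, 2.02, 1.73 to 2.35). Of Hist1h2ab the aged spleen had 629 UMIs at shared barcodes, 699 in its cycling cells and 60 in its others.

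For the H1 members with most UMIs the shared ratio was closer to 1 than the young to aged ratio in microglia-like cells. Hist1h1e had 96.8 CPM in the young brain and 67.5 in the aged spleen there, a ratio of 1.43 (1.29 to 1.59), and Hist1h1c had 111 CPM in the young brain and 96.9 in the aged spleen, 1.14 (1.04 to 1.25). Hist1h2ac gave 1.32 (0.953 to 1.80) and Hist4h4 1.05 (0.659 to 1.60), intervals that included 1, beside young to aged levels in microglia-like cells of 167 against 46.5 CPM and 72.3 against 20.04. Hist3h2a lay on the other side, 0.668 (0.527 to 0.838), although it was lower in the aged brain. The 5 class ratios were also limited to the 33 members within 1.5-fold of 1 at shared barcodes, an alternative added after seeing the data. The microglial ratio was then 0.522. That window still holds members above 1 such as Hist1h1e, at 1.43, so this value does not set the difference at shared barcodes aside. The spleen comparisons use neither the young brain nor its shared barcodes, and no such check exists for the young spleen.

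**Figure D3:**
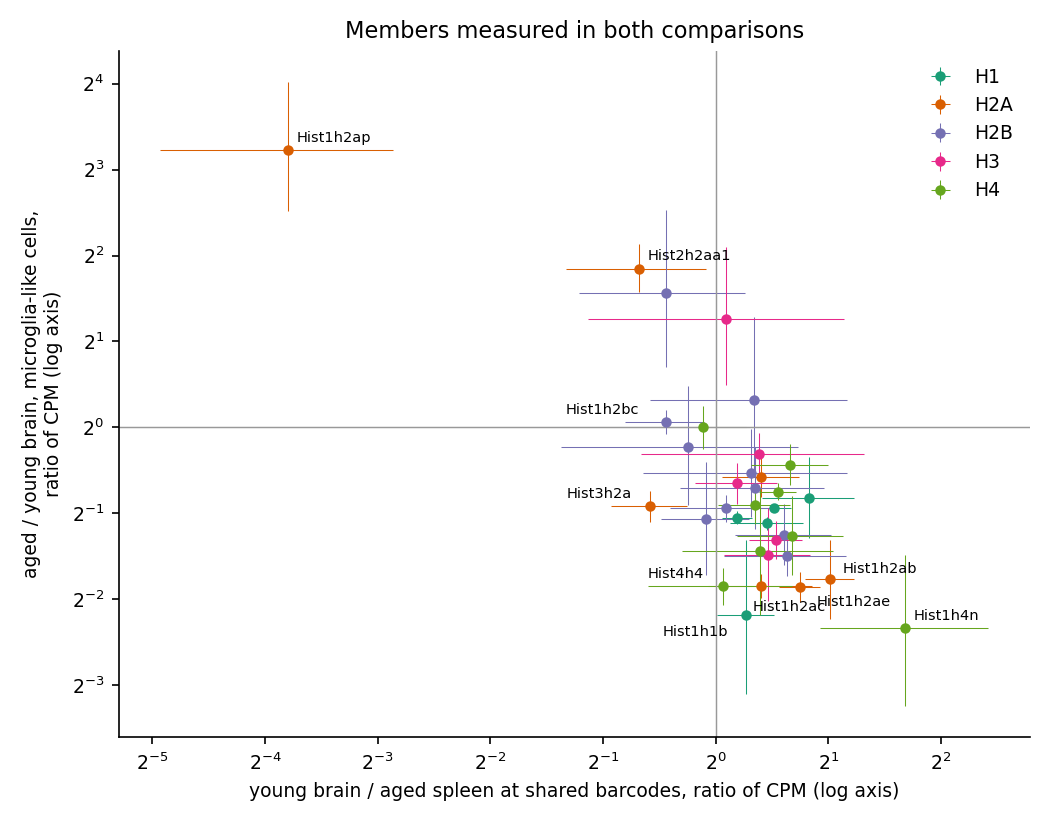
Aged to young ratio of CPM in microglia-like cells against the young brain to aged spleen ratio at shared barcodes, for the 35 members measured in both (points with 95% intervals, coloured by family; both axes are logarithmic). Hist1h2ap lies alone at the upper left, at 0.0720 and 9.34, and most members lie at the lower right. Cycling cells were left out of the microglial ratio only.

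The few lymphocytes of the aged brain had higher levels than those of the aged spleen. T-like cells had 905 CPM in the aged brain (93 cells), a ratio of 3.25 (2.86 to 3.70) to the spleen, and NK-like cells 1183 CPM (17 cells), a ratio of 2.76 (2.08 to 3.58). All 10 microglia markers had UMIs in both groups of brain cells, summing to 5080.0 CPM in T-like and 2222 in NK-like cells, against 32.5 and 34.0 in the spleen and 26486 in microglia-like cells. Their part in the brain levels was not tested. The young brain had 14 T-like and 5 NK-like cells and no B-like cell outside shared barcodes, too few to compare.

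Cycling cells held several times more of these genes in each library. Summed levels were 9756 CPM in 94 cycling and 1480.4 in other cells of the aged brain, a ratio of 6.59 (6.41 to 6.77). The aged spleen had 2287 CPM in 282 cycling cells and 417 in the others, 5.49 (5.34 to 5.64), and the young spleen 2878 in 171 and 565, 5.09 (4.94 to 5.26). In the young brain 8 cycling cells gave 16279 CPM against 2988, 5.448 (5.05 to 5.87). A threshold in marker UMIs is met more easily by deep cells. Median UMIs of cycling and other cells were 6115 and 2184 in aged brain and 5087.5 and 2301 in young brain. They were 8982.5 and 4568.5 in aged spleen and 5756 and 4106.5 in young spleen. The part of depth in these ratios was not tested. Of the measured members, 38 of 44 were higher by 2-fold or more in cycling cells of the aged brain, 37 of 45 for aged spleen and 35 of 44 for young spleen, against 9.37%, 15.8% and 9.84% of all genes. Some members passed the minimum of UMIs through cycling cells alone, and such a member can only be called higher. Hist1h2af, with 51 UMIs in cycling and 1 in other cells of the aged brain, is an example. These counts are therefore not counts of all members, and the same minimum applied to all genes.

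The cells just inside and just outside the threshold of 2 marker UMIs differed far less than those with 4 or more. In the aged spleen the members summed to 454 CPM (361 cells) at 1 marker UMI, 564 (111 cells) at 2, 612 (30 cells) at 3 and 2871 (141 cells) at 4 or more. The young spleen gave 544 (386 cells), 764 (88 cells), 727 (17 cells) and 3858 (66 cells). In the aged brain cells with 2 marker UMIs had 956 CPM (21 cells), below the 1294 (96 cells) of cells with 1, and cells with 4 or more had 11460.1 (73 cells). Which cells cycled also differed: 48 of 94 in the aged brain, 80 of aged spleen and 36 of young spleen lay in cluster 13, which mixes immunoglobulin genes with Prtn3, Mpo and Elane and is left unnamed here. Within cluster 13 the ratio of cycling to other cells was 8.32 (5.12 to 14.6), 3.76 (3.499 to 4.05) and 7.22 (5.446 to 9.79) in those 3 libraries. Its other cells in the aged brain were 12, with 16 member UMIs. Median UMIs of its cycling and other cells were 6040.5 and 668.5 in aged brain, 16685.5 and 1431.5 in aged spleen, and 9606 and 2471 in young spleen. Within lymphocyte classes the ratio of cycling to other cells was closer to 1: 1.33 (1.15 to 1.54) and 1.42 (1.14 to 1.75) in T-like cells of the aged and young spleen, 0.937 (0.712 to 1.21) and 1.06 (0.864 to 1.298) in B-like cells, and 0.935 (0.802 to 1.08) in NK-like cells of the young spleen. Of these, the intervals of T-like cells lay above 1 and those of the other 3 included it.

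**Figure D4:**
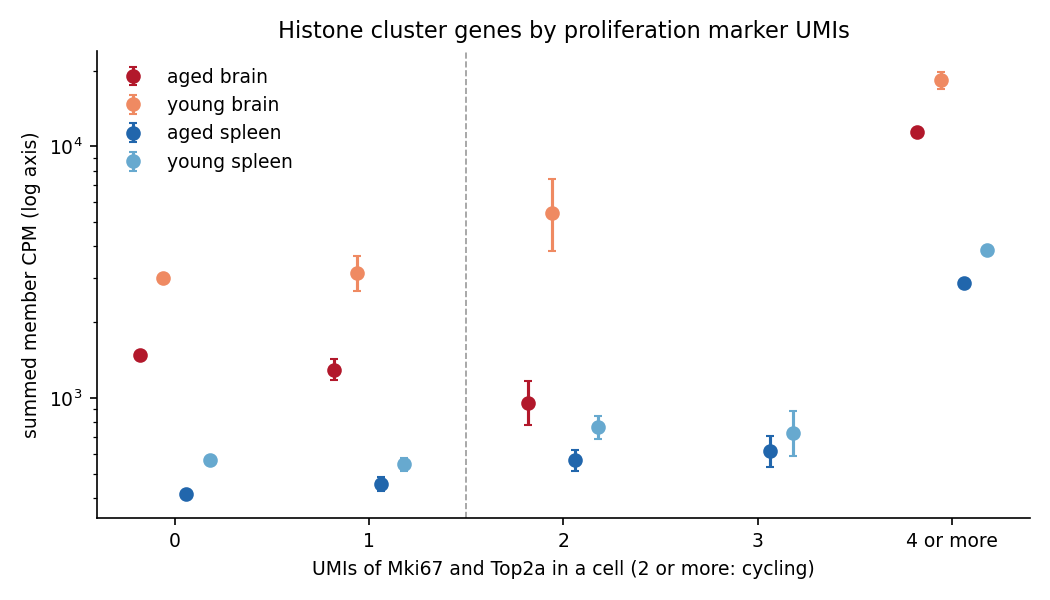
Summed CPM of the 67 genes (logarithmic axis, with 95% Poisson intervals) in cells with 0 to 3, or 4 or more, UMIs of Mki67 and Top2a, by library; the dashed line marks the threshold for cycling. In the aged brain the level goes from 956 CPM at 2 marker UMIs to 11460.1 at 4 or more, and no aged or young brain cell had exactly 3.

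Cycling and other cells held the members in different proportions, given here by where the annotated transcript ends; the difference between these groups of members was not tested. The 19 members that run past the stem-loop had 4348 CPM in cycling and 1149 in other cells of the aged brain, 3.79 (3.64 to 3.94), and 3.48 (3.36 to 3.62) and 3.22 (3.08 to 3.37) in the aged and young spleen. The 18 that end at the loop had 2619.5 CPM in cycling and 165 in other cells, 15.9 (14.99 to 16.8), and 11.3 (10.6 to 12.1) and 10.8 (10.04 to 11.6) in the spleens. The 15 with a 3′ UTR but no stem-loop gave 7.78 (7.19 to 8.42), 6.16 (5.72 to 6.63) and 5.92 (5.43 to 6.45) in the same libraries. The 15 without a 3′ UTR had 1582 CPM in cycling and 11.9 in other cells, 133 (116 to 153), and 21.5 (19.3 to 24.0) and 16.4 (14.96 to 18.0). In the aged brain 1 of these 15, Hist1h1b, held 646 of their 1010 UMIs in cycling cells and 42 of their 274 in other cells. Hist1h1b thus weighs heavily in the ratio of 133, and a ratio without that gene was not computed. Members past the loop made up 77.6% of member UMIs in other cells and 44.6% in cycling cells of the aged brain, and 71.6% and 45.3% in the young spleen.

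**Figure D5:**
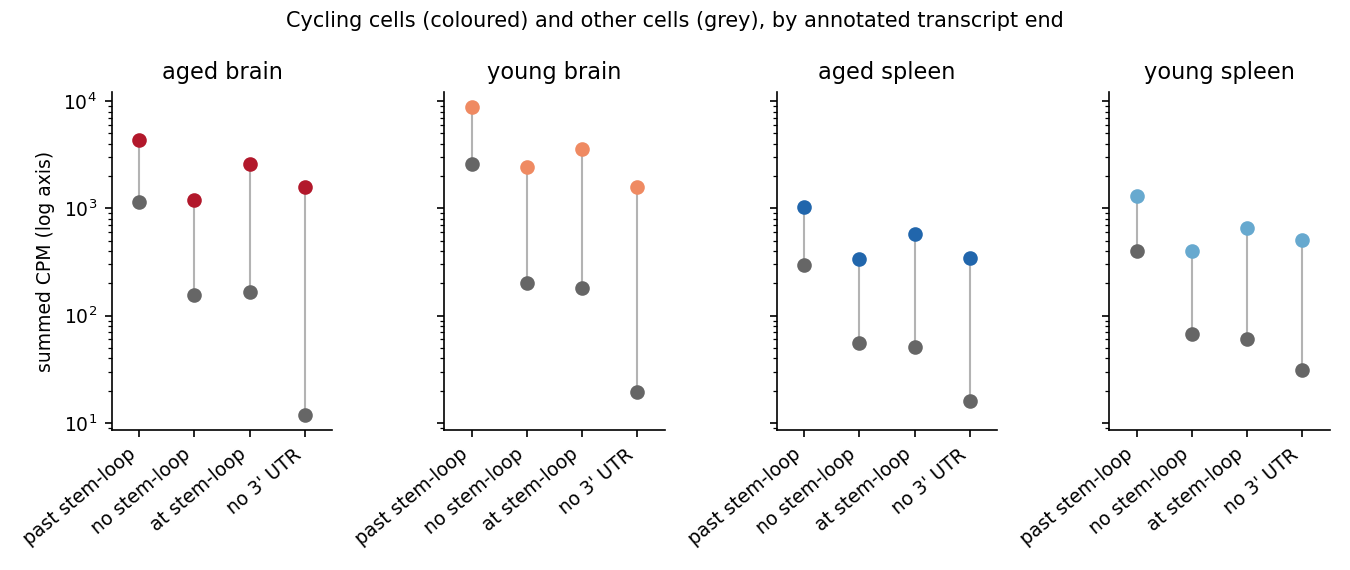
Summed CPM (logarithmic axis) in cycling cells (coloured) and other cells (grey) of each library for members grouped by annotated transcript end. The gap is narrowest for members that run past the stem-loop, 3.79-fold in the aged brain. It is widest for those with no annotated 3′ UTR or one of at most 2 bases (no 3′ UTR), 133-fold. Of the 1010 cycling UMIs of that last group in the aged brain, Hist1h1b held 646.

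Single members ranged widely. Hist1h1b had 1012 CPM in cycling and 1.82 in other cells of the aged brain, a ratio of 555 (406 to 777), and 48.7 and 30.01 in the aged and young spleen. Hist1h3c had 287 CPM in cycling and 0.478 in other cells of the aged brain, 600.1 (328 to 1223), and 269 and 309 in the spleens. Hist1h2ab (426 CPM in cycling and 3.78 in other cells of the aged brain) and Hist1h2ae (600.0 CPM in cycling and 24.1 in other cells of the aged brain) were high in cycling cells too, at 113 (88.3 to 145) and 24.9 (21.8 to 28.5). Hist1h2ap had 899 CPM in cycling and 20.1 in other cells of the aged brain, 44.8 (39.6 to 50.8). All but Hist1h2ae and Hist1h2ap had under 5 CPM in the other cells of that library.

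At the other end, Hist3h2a was lower in cycling cells, with 14.1 CPM in cycling and 33.9 in other cells of the aged brain, a ratio of 0.416 (0.190 to 0.794), and 0.530 (0.405 to 0.684) and 0.515 (0.337 to 0.756) in the spleens. Hist4h4 gave 0.465 (0.150 to 1.09) in the aged brain, and 0.943 (0.579 to 1.47) and 1.48 (0.787 to 2.56) in the spleens. Hist1h1c differed little, at 1.87 (1.62 to 2.16), 1.18 (1.07 to 1.29) and 1.08 (0.936 to 1.24), and Hist1h2bc gave 0.943 (0.722 to 1.21) in the aged brain. Hist1h1e, with 1128 CPM in cycling and 452 in other cells of the aged brain, lay between, at 2.50 (2.31 to 2.69), 3.31 (3.02 to 3.62) and 2.25 (2.03 to 2.50). Hist3h2a, Hist4h4 and Hist1h1c all run past their stem-loops, and Hist1h2bc has a 3′ UTR without one. Members past the loop were not all at this end: Hist1h2ae, given above, gave 35.6 (30.3 to 42.1) and 24.0 (21.3 to 27.1) in the spleens, and Hist1h4d had 1177 CPM in cycling and 114 in other cells of the aged brain, 10.3 (9.53 to 11.2).

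Lists of genes that work with histones are given next for microglia-like cells, in which 1.56% of all measured genes were lower and 5.05% higher. The replication-independent histone genes outside the clusters had 0 of 9 measured genes lower and 0 higher (median log2 ratio -0.30), among them H3f3b with 1648 CPM in aged and 2601 in young and H3f3a with 264 CPM in aged and 237 in young, 2 genes of the H3 variant placed outside replication. Genes of histone mRNA transcription and 3′ processing had 0 of 12 measured genes lower and 0 higher (median log2 ratio 0.19), with the stem-loop binding protein Slbp with 52.3 CPM in aged and 44.1 in young. Histone chaperones had 0 of 12 measured genes lower and 0 higher (median log2 ratio -0.03) and S-phase genes 0 of 14 measured genes lower and 0 higher (median log2 ratio 0.07), with Pcna at 28.9 and 45.9 CPM. Of the mitosis list 3 genes were measured, and Cdk1 was lower, with 2.29 and 5.34 CPM. In cycling cells of the aged brain 16 of 16 measured S-phase genes and 7 of 9 histone variant genes were higher by 2-fold or more, against 9.37% of all genes, among them H2afz at a ratio of 8.13. Here too a gene can pass the minimum of UMIs through cycling cells, so these are not counts of all listed genes.

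In border macrophage-like cells, with 1.98% of all measured genes lower and 5.98% higher, the same lists had 1 of 8 measured genes lower and 0 higher (median log2 ratio -0.44) for the variants, where Cenpa (26.7 and 60.0 CPM) was the gene called, 0 of 9 measured genes lower and 0 higher (median log2 ratio 0.06) for processing, 0 of 10 measured genes lower and 0 higher (median log2 ratio -0.02) for chaperones and 0 of 5 measured genes lower and 0 higher (median log2 ratio -0.31) for S phase. In NK-like cells, with 2.56% of all measured genes lower and 2.51% higher, the processing list had 2 of 12 measured genes lower and 0 higher (median log2 ratio -0.11) and the S-phase list 1 of 14 measured genes lower and 0 higher (median log2 ratio -0.14): Lsm10 (6.80 and 23.7 CPM), Zc3h8 (3.92 and 11.4 CPM) and Tyms (2.88 and 5.75 CPM) were the genes called, and Slbp was at 145 and 171 CPM. T-like and B-like cells had no called gene among the variants, processing, chaperone or S-phase lists, with medians of -0.05, -0.13, -0.11 and -0.12 in T-like and -0.16, -0.16, -0.13 and -0.08 in B-like cells. Over all measured genes the medians were -0.09 and -0.13 in those classes. At shared barcodes the variants had 2 of 10 measured genes lower and 0 higher (median log2 ratio -0.10), which were H3f3a at a young brain to aged spleen ratio of 0.361 and H2afz at 0.453, and Slbp gave 0.655.

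Immediate early genes, which also respond to tissue dissociation, had medians below 0 in brain and above 0 in spleen. Microglia-like cells had 4 of 15 measured genes lower and 0 higher (median log2 ratio -0.72): Fos (259 and 635 CPM), Fosb (125 and 365 CPM), Klf2 (61.01 and 195 CPM) and Klf6 (198 and 421 CPM). Border macrophage-like cells had 2 of 14 measured genes lower and 0 higher (median log2 ratio -0.72): Fosb (158 and 386 CPM) and Klf2 (102 and 208 CPM). NK-like cells had 0 of 15 measured genes lower and 3 higher (median log2 ratio 0.46): Ier3 (18.3 and 6.80 CPM), Atf3 (199 and 93.6 CPM) and Nr4a1 (825 and 407 CPM), each aged value first. T-like cells had 0 of 15 measured genes lower and 0 higher (median log2 ratio 0.43), and B-like cells 0 of 14 measured genes lower and 1 higher (median log2 ratio 0.04), which was Nr4a1 (826 and 350.4 CPM). The shares of all genes lower and higher were 1.56% and 5.05% in microglia-like, 1.98% and 5.98% in border macrophage-like, 2.56% and 2.51% in NK-like, 1.86% and 3.04% in T-like and 1.73% and 1.68% in B-like cells. A list drawn up for ribosomal RNA and other RNA without a genomic poly(A) tail also holds the protein-coding gene Lars2. Of its 9 genes 4 were measured in each class, Lars2 among them. The medians were -0.18, -0.38, 0.64, 0.46 and 0.67 in microglia-like, border macrophage-like, NK-like, T-like and B-like cells, and 0.59 at shared barcodes. Gm42418, which overlaps ribosomal RNA, had 27878 and 37124 CPM in aged and young microglia-like cells, 80863 and 43471 in NK-like cells, and 128587 in the young brain and 78049 in the aged spleen at shared barcodes. AY036118, another such RNA, went the other way in brain, with 1454 and 817 CPM in aged and young microglia-like cells, a ratio of 1.78, and 1.66 in border macrophage-like cells. Nuclear RNAs such as Malat1 were close, with 48841 and 52392 CPM in aged and young microglia-like cells, but Malat1 had 44458 and 23505 at shared barcodes. The part of these genes in the members' ratios was not tested.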

How the data were processed

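Single cells sorted on high CD45 were read with the droplet 3′ kit, version 2, in 4 libraries. The authors deposited raw UMI counts per gene and barcode with no cell filter, per the file headers (software version 3.1.0). Cell Ranger 1.3.1 and the human build GRCh38 stand in the submitters' processing notes; both differ from the headers and from the mouse identifiers, and the build used for counting is uncertain. How reads that fit 2 genes were treated is not given in the sources used.

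Cells were called against free RNA (barcodes of at most 100 UMIs; 10000 simulations; false discovery rate 0.01) and kept with at least 500 UMIs, 250 genes and at most 10% mitochondrial UMIs. Doublets were scored with scanpy's Scrublet; where its automatic threshold marked under 0.5% of cells, the top-scoring cells were dropped (0.8% for every 1000 cells), leaving 5290 to 9099 cells. Clustering left out the histone cluster genes (2000 variable genes, 30 components, 15 neighbours, resolution 1), and classes are named from 19 marker lists. UMIs were summed per class and library, since cells are not replicates, and no test was made. The members and all lists were chosen with earlier results of these data known. A gene at 0 in 1 library was set to 3 UMIs there and called only as lower in that library, and no gene with at most 3 UMIs in both was called. Members named in full are the 12 with most UMIs and those called in 2 or more comparisons; from 8 other lists, the 4 genes with most UMIs could be named, and other called genes were named after their values were seen. Alternatives changed the scaling, depth, filters, classes, thresholds and shared barcodes. The ratios and intervals were tested on simulated data. Stem-loops were searched in GENCODE M21 transcripts, and promoters come from RefSeq. Python 3.11.15, numpy 2.4.6, scipy 1.17.1 and scanpy 1.11.5 were used. The authors' deposited tables of cluster markers were not used.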

Additional observations from a re-analysis of the deposited data

Results flagged for a closer look

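Hist1h2ap, an H2A gene, moved in opposite directions in 2 classes. It was 9.34-fold higher in aged than in young microglia-like cells (23.6 and 2.52 CPM), and its aged to young ratio in NK-like cells of the spleen was 0.381 (2.09 and 5.49 CPM); it was 1.78 (1.02 to 3.21) in T-like and 1.07 in B-like cells. The difference between the 2 ratios was not tested, since each class has 1 library per age. At barcodes shared by young brain and aged spleen, with cycling cells kept, the young brain library held 1.84 CPM of Hist1h2ap and the aged spleen 25.5, a ratio of 0.0720. Only the microglial ratio uses the young brain library. The last 300 bases of the transcript are shared in full with Hist1h2ao, which had 0.0693 CPM in aged and 0.891 in young microglia-like cells.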

How the results depend on the processing

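With 1 library per group the intervals hold counting error only, so a value is said to have moved where it left its interval. The summed ratios stayed below 1 in microglia-like (0.491 to 0.571), border macrophage-like (0.469 to 0.596), NK-like (0.573 to 0.724) and T-like cells (0.712 to 0.882) under every alternative run. In B-like cells they ran from 0.627 to 1.16, and cluster 21 alone gave the 1.16. The cause of each move below was not tested.

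Scaling by the median of ratios gave 0.514 in microglia-like, 0.676 in NK-like, 0.823 in T-like (1 member lower, against 3, and 1.35% of genes) and 0.70 in B-like cells. Thinning each cell to 1000 UMIs gave 0.596 in border macrophage-like, 0.712 in T-like and 0.675 in B-like cells, with 1, 0 and 4 members lower there and 2 in NK-like cells (2.44%, 1.94%, 1.82% and 2.64% of all measured genes); Hist1h4c then stood at 1.12 in NK-like and Hist1h4a at 1.38 in T-like cells. A mitochondrial limit of 5% gave 0.826 in T-like and 0.757 in B-like cells, with 4, 1 and 3 members lower in border macrophage-like, T-like and B-like cells (2.44%, 2.08% and 2.16% of genes), and a limit of 20% gave 0.469 in border macrophage-like cells. Classes from a marker gate gave 0.491 in microglia-like and 0.685 in B-like cells, and 3 members lower in border macrophage-like cells (2.27% of genes).

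Members lower numbered 7 in T-like and 15 in B-like cells at a minimum of 20 UMIs (2.69% and 3.08% of genes). With no minimum they numbered 24, 18, 23, 10 and 20 in microglia-like, border macrophage-like, NK-like, T-like and B-like cells (3.62%, 4.09%, 5.03%, 3.94% and 4.67% of genes). At 1.5-fold they numbered 24, 12, 18 and 7 in the first 4 of these classes (4.57%, 9.01%, 11.3% and 8.80%), and at 3-fold 6, 2, 3, 0 and 2 (0.679%, 0.522%, 0.427%, 0.346% and 0.313%).

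The following were chosen after seeing the data. Without Hist1h1e the ratio was 0.677 in NK-like and 0.697 in B-like cells, and over members near 1 at shared barcodes it was 0.522 in microglia-like cells. Single clusters gave 0.557, 0.571 and 0.516 (clusters 0, 2 and 3, microglia-like), 0.724 and 0.573 (18 and 19, NK-like), 0.715, 0.882 and 0.833 (6, 7 and 20, T-like) and 1.16, 0.678 and 0.767 (21, 22 and 23, B-like). Without clusters 13 and 14 the ratio of cycling to other cells was 7.14 in aged brain, 4.30 in aged spleen and 3.42 in young spleen.

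With cycling set at 1 marker UMI or more, that ratio was 4.67 in aged brain, 3.08 in young brain, 4.04 in aged spleen and 2.91 in young spleen, and at 4 or more it was 7.75, 6.13, 6.78 and 6.78. Shared barcodes of B-like cells alone gave 1.11, with Hist1h1c at 0.973, those of T-like cells 1.31, with Hist1h3f at 0.857, and those of NK-like cells 1.15, with Hist1h1b at 0.696, Hist1h3e at 0.914, Hist1h2bg at 0.614, Hist1h2bc at 1.60 and Hist1h4c at 0.821.

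A further 1141 values under the alternatives were ratios of single members, counts of members higher, and counts of members called at shared barcodes. Of these 1063 stayed the same, 69 moved and 9 changed side. A ratio stayed the same within its interval. Counts of members, here and above, have no interval and moved where they changed by more than 1.5-fold. No paired analysis was possible because each group is 1 library. Depth limits the members of few UMIs: 27 of the 67 reached 50 UMIs in none of the 5 classes.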

Other observations

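Grouped by annotated transcript end, the members had these levels in microglia-like cells, with no test of a difference between groups. The 19 members that run past the stem-loop summed to 1374 CPM in aged and 2809 in young cells, with a median ratio of 0.483 over 17 measured members, and made up 79.6% of the aged and 87.3% of the young member UMIs. The 18 members that end at the loop summed to 190.0 CPM in aged and 189 in young cells, while their median ratio was 0.670 over 11 measured members. Among them Hist2h2aa1 (64.1 and 17.8 CPM) and Hist1h2ap (23.6 and 2.52 CPM) were higher in the aged cells. The 15 members whose 3′ UTR holds no stem-loop summed to 150.1 and 199 CPM, with a median of 0.653 over 8, and the 15 with no annotated 3′ UTR, or one of at most 2 bases, to 11.6 and 19.7 CPM. In B-like cells of the spleen the members past the loop made up 72.2% of aged and 71.8% of young member UMIs, with 302 and 467 CPM, and those at the loop had 49.0 and 57.5 CPM. Members with no stem-loop had 55.8 and 88.5 CPM there, and those without a 3′ UTR, Hist1h1b and Hist1h2an among them, 11.8 and 37.4.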
